A study of Mus musculus with 6 samples.

Results

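Autotaxin is the secreted enzyme encoded by Enpp2. It cleaves choline from lysophosphatidylcholine (LPC) outside cells and so makes lysophosphatidic acid (LPA), a lipid signal that acts on G protein-coupled receptors. The genes described here are 10 of the 24346 rows of the deposited table, taken by gene symbol, namely Enpp1 to Enpp5 of the ectonucleotide pyrophosphatase/phosphodiesterase family and the LPA receptor genes Lpar1, Lpar2, Lpar3, Lpar4 and Lpar6. They were chosen with their values in busulfan-treated and control mice already known, so the difference between these groups is described for the 10 genes and not tested. The tissue was the epididymis, initial segment together with caput (IS-caput), of 12-week-old Wild-type mice given an intraperitoneal injection of Busulfan or of its solvent DMSO. Busulfan alkylates DNA and is used in mice to empty the testis of germ cells. Each group had 3 libraries of poly(A) RNA, and the labels do not say that each came from a separate mouse, so p-values rest only on how far these libraries differ, and that spread may be technical. The labels state neither the dose nor the time after injection.

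Among the relatives of autotaxin, the membrane proteins ENPP1 and ENPP3 split nucleotides, and ENPP1 also makes pyrophosphate and degrades the STING ligand cGAMP. ENPP4 hydrolyses dinucleotides on the cell surface, and ENPP5 is a less studied membrane member of the family. LPA1, LPA2 and LPA3 belong to the EDG branch of receptors, which also holds the receptors for sphingosine 1-phosphate, whereas LPA4 and LPA6 resemble the P2Y nucleotide receptors. LPA receptors couple to several classes of G protein, among them those that activate the small GTPase RhoA. Autotaxin activity is known from seminal fluid, and LPA receptors are known to act in the mouse testis.

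The unit is normalized FPKM as the authors deposited it, in which fragments are divided by the length of the transcript and the size of the library, so levels can be compared between genes. Summed FPKM ran from 707219 to 732495 in the DMSO libraries and from 625087 to 666662 in the busulfan libraries. The spacing of low values gave a rough depth of 11200000 to 13100000 fragments per library. Markers of principal cells, the secretory cells of the proximal epididymal epithelium, were present in both groups (11 of 11 tested). They summed to 90867 to 96394 FPKM with DMSO and to 79276 to 80920 FPKM with busulfan. Of these markers 8 fell, 2 rose (Lcn5 and Clu) and 1 did not pass. Lcn8, Teddm2 and Crisp1 fell furthest, from means of 12280, 1417 and 736 FPKM with DMSO to 26.5, 1.74 and 18.5 FPKM with busulfan. Most of the busulfan sum came from Gpx5, Spag11b, Clu and Lcn5, at means of 28635, 19717, 14652 and 10790 FPKM. Over the 11 genes, the log2 changes had their median at -1.26. Of the 12848 genes whose mean reached 1 FPKM, 42.8% passed an adjusted p of 0.05 by limma on log2(FPKM + 1), 2668 higher and 2833 lower with busulfan. When every library was scaled to the same summed FPKM, the median log2 change of all tested genes moved from 0 to 0.14 and the split became 4584 higher and 1588 lower. Of 7 tested spermatid and sperm markers 4 fell and 1 (Smcp) rose, and of 9 smooth muscle markers 1 (Actg2) fell and 8 did not pass. In bulk tissue, fewer cells of a type and less RNA per cell cannot be told apart.

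Of the 10 genes, 7 reached that mean of 1 FPKM and 3 (Enpp3, Lpar3 and Lpar4) did not. The groups did not overlap for 5 of the 7, with busulfan above DMSO in 4 and below in 1, beside 54.6% of all tested genes (26.9% above and 27.7% below). Nothing is read from this count, since the genes were chosen on this contrast.

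**Figure D1:**
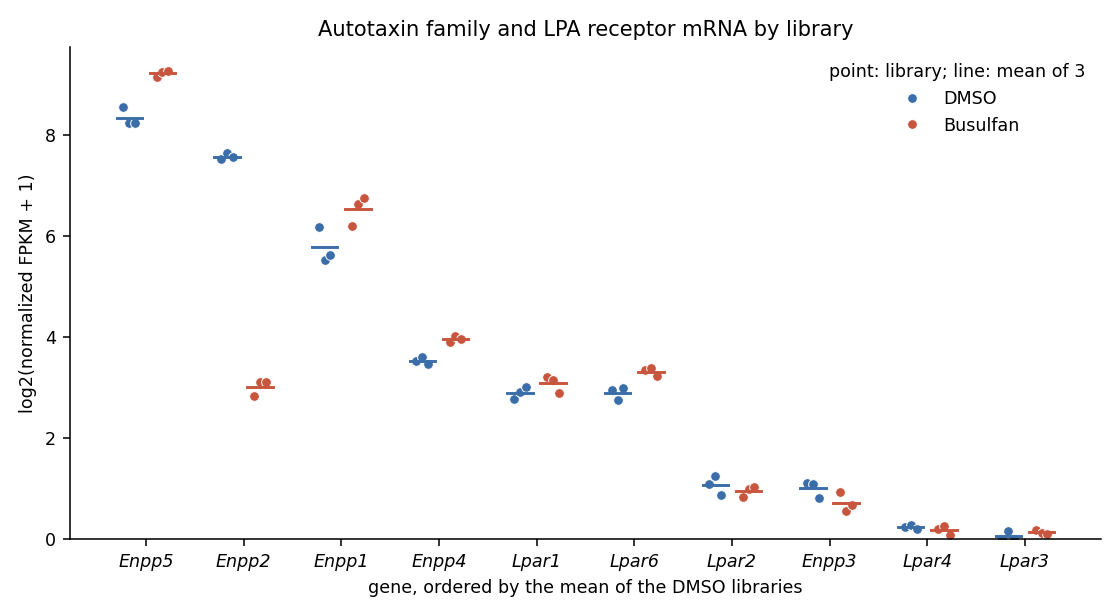
Level of each of the 10 genes in each library, as log2(normalized FPKM + 1), in the order of the DMSO means. Enpp2 is second in the DMSO libraries (182 to 198 FPKM) and stands near Lpar1 and Lpar6 in the busulfan libraries (6.14 to 7.65 FPKM), while Enpp5, Enpp1, Enpp4 and Lpar6 stand higher with busulfan.

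Enpp2 (NCBI gene 18606, chromosome 15, 54838901 to 54952892 on GRCm38, minus strand) stood at 182, 198 and 188 FPKM in DMSO replicates 1 to 3 and at 6.14, 7.65 and 7.64 FPKM in busulfan replicates 1 to 3. Each busulfan library lay far below each DMSO library, and within a group the libraries lay close together. The means were 189 ± 7.92 and 7.14 ± 0.87 FPKM (SD, n = 3 per group), so 3.78% of the DMSO level remained, a 26.5-fold lower level. On the log2(FPKM + 1) scale the difference was -4.55 with a standard error of 0.081 from limma, the 30th lowest of the 12848 tested genes. Among all rows of the table, Enpp2 ranked 456th by mean FPKM in the DMSO libraries and 7817th in the busulfan libraries.

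The level of Enpp2 was set beside markers of fat, where autotaxin is known to be abundant. Adipocyte markers summed to 42.8 to 49.4 FPKM with DMSO and to 42.3 to 51.8 FPKM with busulfan. Most of that sum came from Pnpla2, Plin4 and Lipe. Their means were 28.7, 5.31 and 5.01 FPKM with DMSO and 23.9, 14.3 and 3.68 FPKM with busulfan. Of the 10 markers 5 were tested, with 1 higher (Plin4), 1 lower (Lipe) and 3 not past the threshold. That is 40.0% called, close to the 42.8% of all tested genes. Mean levels in the DMSO and busulfan libraries were 0.359 and 0.159 FPKM for the adiponectin gene Adipoq and 0.089 and 0.0974 FPKM for the lipid droplet gene Plin1. They were 3.32 and 1.57 FPKM for the fatty acid binding protein gene Fabp4 and 1.55 and 1.74 FPKM for the adipsin gene Cfd. Cidec, Lep and Retn stood at 0.427, 0.0966 and 0.254 FPKM with DMSO and at 0.103, 0.134 and 0.223 FPKM with busulfan. The part of fat cells in the level of Enpp2 was not tested. An annotated noncoding gene on the opposite strand, Gm26684, overlaps the 5′ end of Enpp2. Whether the authors counted by strand is not given in the sources used here.

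Enpp5 (NCBI gene 83965, chromosome 17, 44078813 to 44086567, plus strand) was the most abundant of the 10 in every library. It stood at 376, 299 and 301 FPKM with DMSO and at 564, 602 and 615 FPKM with busulfan. The groups did not overlap, and DMSO replicate 1 was the highest of its group. The means were 325 ± 44 and 594 ± 26.8 FPKM, a 1.82-fold higher level with a log2 difference of 0.87 ± 0.092 (limma standard error). By mean FPKM it ranked 284th of all rows with DMSO and 155th with busulfan.

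Enpp4 (NCBI gene 224794, chromosome 17, 44096308 to 44105809, minus strand) lies 9740 bases from Enpp5, with no coding gene between them and with their 3′ ends facing each other. It stood at 10.5, 11.1 and 10.1 FPKM with DMSO and at 14, 15.3 and 14.5 FPKM with busulfan. All busulfan libraries lay above all DMSO libraries, by 1.38-fold on the means and by 0.43 ± 0.063 on the log2(FPKM + 1) scale. Both genes of the pair were therefore higher with busulfan, at levels that differed by 27.0-fold to 42.4-fold within a library.

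Enpp1 (NCBI gene 18605, chromosome 10, 24637914 to 24712159, minus strand) stood at 71.8, 44.8 and 48.1 FPKM with DMSO and at 72.4, 98.5 and 107 FPKM with busulfan. The groups did not overlap but nearly met, since DMSO replicate 1 and busulfan replicate 1 had almost the same level. The means were 54.9 ± 14.7 and 92.7 ± 18.2 FPKM, 1.69-fold higher with busulfan, with a log2 difference of 0.76 ± 0.19. It was 0.63 to 0.96 when single libraries were left out. Enpp3 (NCBI gene 209558, chromosome 10, 24772406 to 24842823, minus strand) lies 60246 bases from Enpp1 on the same strand, again with no coding gene between. It was low in both groups, at 1.17, 1.14 and 0.759 FPKM with DMSO and 0.912, 0.472 and 0.604 FPKM with busulfan, and the groups overlapped. With the estimated depth and the longest coding transcript, those values correspond to roughly 26 to 64 fragments per library.

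The makeup of the family by level differed between the groups. Enpp1 to Enpp5 together summed to 642, 554 and 547 FPKM in the DMSO libraries and to 657, 724 and 745 FPKM in the busulfan libraries. Enpp2 held 28.4%, 35.7% and 34.3% of that sum with DMSO and 0.934%, 1.06% and 1.03% with busulfan. Enpp5 held 54.0% to 58.6% with DMSO and 82.5% to 85.8% with busulfan. A smaller share of Enpp2 raises the shares of the other genes. The level of Enpp1 was 0.15 to 0.191 times that of Enpp5 with DMSO and 0.129 to 0.175 times with busulfan. For Enpp5 against Enpp4 the ratio was 27.0 to 35.7 with DMSO and 39.3 to 42.4 with busulfan. The level of Enpp2 was 2.53 to 4.41 times that of Enpp1 in the DMSO libraries and 0.0712 to 0.0848 times in the busulfan libraries.

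**Figure D2:**
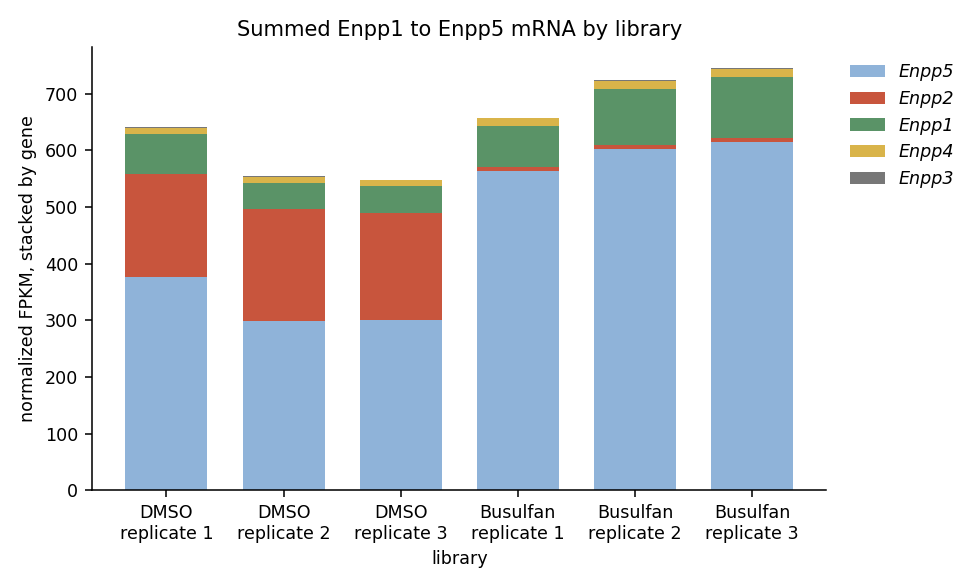
Normalized FPKM of Enpp1 to Enpp5 stacked for each library (bars start at 0). The Enpp2 segment takes 28.4% to 35.7% of each DMSO bar and 0.934% to 1.06% of each busulfan bar, and the whole bar is 547 to 642 FPKM with DMSO and 657 to 745 FPKM with busulfan.

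Among the receptors, Lpar6 and Lpar1 were the most abundant, and their levels overlapped in the DMSO libraries. Lpar6 (NCBI gene 67168, chromosome 14, 73237895 to 73243294, plus strand), the P2Y-type receptor gene known from hair growth disorders in humans, stood at 6.70, 5.73 and 6.97 FPKM with DMSO and at 9.12, 9.48 and 8.32 FPKM with busulfan. The groups did not overlap, and the means of 6.47 ± 0.652 and 8.97 ± 0.593 FPKM differed by 1.39-fold, with a log2 difference of 0.42 ± 0.085. Lpar6 lies inside Rb1 (73183673 to 73325822) on the opposite strand, and Rb1 stood at 12.2 ± 0.269 and 11.8 ± 0.244 FPKM with overlapping groups. Without a known strand setting, fragments from unspliced Rb1 RNA cannot be separated from Lpar6.

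Lpar1 (NCBI gene 14745, chromosome 4, 58435255 to 58553898, minus strand), the widely expressed EDG-type receptor gene, stood at 5.85, 6.58 and 7.04 FPKM with DMSO and at 8.22, 7.93 and 6.44 FPKM with busulfan. The groups overlapped, because busulfan replicate 3 lay within the range of the DMSO libraries. The log2 difference was 0.18 with a standard error of 0.10. Lpar2 (NCBI gene 53978, chromosome 8, 69822429 to 69831102) stood at 1.13, 1.37 and 0.837 FPKM with DMSO and at 0.795, 0.99 and 1.06 FPKM with busulfan, also with overlap and with a log2 difference of -0.11 and a standard error of 0.14.

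Lpar4 (chromosome X, 106920625 to 106933900) and Lpar3 (chromosome 3, 146220963 to 146286186) were close to the limit of detection. Lpar4 stood at 0.19, 0.211 and 0.158 FPKM with DMSO and at 0.158, 0.198 and 0.0618 FPKM with busulfan, roughly 3 to 12 fragments per library. Lpar3 was listed at 0 in DMSO replicates 1 and 3 and at 0.124 FPKM in replicate 2, and it stood at 0.139, 0.095 and 0.0725 FPKM with busulfan. These Lpar3 values correspond to at most about 4 fragments, so no difference was detectable at this depth. The 5 receptor genes together summed to 13.9 to 15.0 FPKM with DMSO and to 16.0 to 18.7 FPKM with busulfan.

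By level per length, the DMSO libraries gave the order Enpp5, Enpp2, Enpp1 and Enpp4, whose ranges did not touch. Lpar1 and Lpar6 followed with overlapping ranges, then Lpar2 and Enpp3 with overlapping ranges, then Lpar4 and Lpar3. In the busulfan libraries the order was Enpp5, Enpp1 and Enpp4 with separate ranges. Lpar6 came next and did not touch Lpar1, but Lpar1 overlapped Enpp2. Lpar2 and Enpp3 overlapped again, as did Lpar4 and Lpar3.

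The 3 family genes outside the set were all below a mean of 1 FPKM. Enpp6, which encodes a choline-specific phosphodiesterase, stood at 1.23, 1.71 and 1.34 FPKM with DMSO and at 0.139, 0.127 and 0.145 FPKM with busulfan, so that 9.6% remained and the groups did not overlap. The busulfan values rest on roughly 8 fragments each. Enpp7, which encodes the intestinal alkaline sphingomyelinase, was listed at 0 in every library. Lpar5 stood at 0.178 to 0.515 FPKM with DMSO and at 0.366 to 0.628 FPKM with busulfan, with overlap.

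The promoter table from RefSeq (GRCm38.p6) holds 8 of the 10 genes, with 10 starts. The 250 bases before the start are shown for Enpp1, Enpp4 and Lpar6, the genes with an entry whose busulfan libraries all lay above the DMSO libraries. They are printed 5′ to 3′ on the strand of the gene, and capitals mark a match on either strand to the ETS site CCGGAA or the GC box GGGCGG.
Enpp1, chr10:24712160-24712409, minus strand: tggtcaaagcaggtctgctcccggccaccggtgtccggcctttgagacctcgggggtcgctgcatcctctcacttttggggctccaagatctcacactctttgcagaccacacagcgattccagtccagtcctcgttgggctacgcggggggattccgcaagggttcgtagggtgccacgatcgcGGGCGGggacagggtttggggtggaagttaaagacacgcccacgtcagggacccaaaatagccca
Enpp4, chr17:44105810-44106059, minus strand: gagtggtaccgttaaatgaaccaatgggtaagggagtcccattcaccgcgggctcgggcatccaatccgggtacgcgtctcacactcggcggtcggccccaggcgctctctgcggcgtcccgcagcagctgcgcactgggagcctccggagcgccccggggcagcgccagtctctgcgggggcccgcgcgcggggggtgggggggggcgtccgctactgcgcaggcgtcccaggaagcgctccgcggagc
Lpar6, chr14:73237641-73237890, plus strand: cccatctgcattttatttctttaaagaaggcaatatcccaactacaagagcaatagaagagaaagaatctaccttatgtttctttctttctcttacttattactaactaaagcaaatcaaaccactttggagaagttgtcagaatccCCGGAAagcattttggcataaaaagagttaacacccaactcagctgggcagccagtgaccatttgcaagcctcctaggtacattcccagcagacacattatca
The 3 windows differ in base composition, with 61.2% G and C for Enpp1, 72.8% for Enpp4 and 39.2% for Lpar6 (median of all 32851 windows, 52.4%). The ETS site CCGGAA was found in 1 of the 10 windows, that of Lpar6, and in 12.0% of all windows. The GC box GGGCGG was found in 6 of the 10 windows, those of Enpp1, Lpar1 at 2 starts, Lpar2, Lpar3 and Lpar4, and in 32.7% of all windows. The TATA box TATAAA was found in the windows of Enpp3 and Lpar4 and in 12.4% of all windows, and the androgen receptor half-site AGAACA in none of the 10 and in 16.1% of all windows. Where such letters stand does not show that a factor binds there.

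The nearest expression pattern to that of Enpp2 was that of Ovch2, by the Euclidean distance between log2(FPKM + 1) values centred on each gene's mean over the 6 libraries. Ovch2 encodes a secreted ovochymase, a serine protease of the initial segment that sperm maturation requires in mice. It stood at 909, 996 and 944 FPKM with DMSO and at 36.2, 42.2 and 42.1 FPKM with busulfan, at a distance of 0.0574 from Enpp2, so the log2 values of the 2 genes ran nearly parallel in all libraries. The next nearest, Teddm1a and Rpl3l, lay at 0.356 and 0.394. Ovch2 and its neighbours were looked up for Enpp2 after its values were seen. For the genes taken by rule, Smarcd3, Haglr and Ckmt1 lay nearest to Enpp5 at 0.0934 to 0.104, and Rin2 and Lysmd3 nearest to Lpar6 at 0.0779 and 0.0913. Distances over 6 libraries describe these libraries and carry no test.

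**Figure D3:**
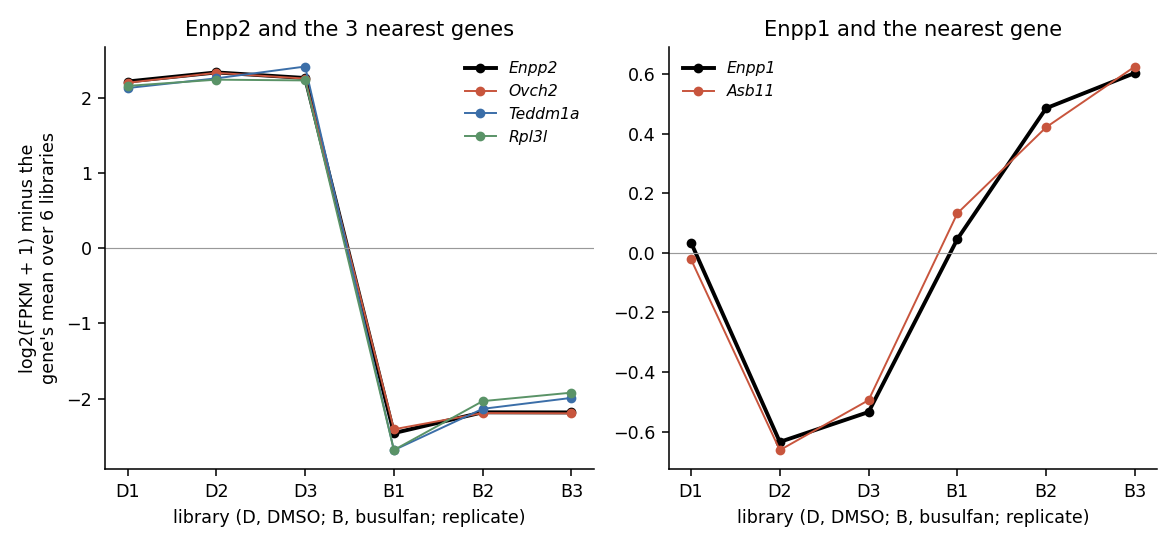
Log2(FPKM + 1) of Enpp2 (left) and Enpp1 (right) with the 3 genes nearest to Enpp2 and the gene nearest to Enpp1 (Asb11), centred on the mean of each gene over the 6 libraries (lines only join the points of a gene). Ovch2 overlies Enpp2 at a distance of 0.0574. Enpp1 and Asb11 have DMSO replicate 1 and busulfan replicate 1 at similar values between the other libraries.

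The enzymes that supply LPC, the substrate of autotaxin, were examined next. Of 16 phospholipase A and LCAT genes, 7 were tested, 2 rose, 2 fell and 3 did not pass (4 of 7, 57.1%, beside 42.8% of all tested genes, 20.8% higher and 22.1% lower), with a median log2 change of -0.12 beside 0 for all tested genes. Pla2g5, which encodes the secreted group V phospholipase A2, fell from 68.2 ± 6.65 to 0.568 ± 0.167 FPKM, a log2 change of -5.46 ± 0.099 (limma adjusted p = 7.22e-09). Its libraries stood at 65.0, 75.8 and 63.7 FPKM with DMSO and 0.403, 0.737 and 0.562 FPKM with busulfan. Every busulfan library lay below every DMSO library, as for Enpp2. Pla2g7, which encodes platelet-activating factor acetylhydrolase, rose from 43.8 ± 9.80 to 95.7 ± 29.0 FPKM (limma adjusted p = 0.00672). Pla2g4a, the cytosolic phospholipase gene, fell to 73.5% of its DMSO level, and lysosomal Pla2g15 rose 1.17-fold (limma adjusted p of 0.0162 and 0.0495). When DMSO replicate 2 or 3 was left out, neither gene passed (0.0521 and 0.0589 for Pla2g4a, 0.152 and 0.0955 for Pla2g15, as limma adjusted p), which left 2 genes called. The call of Pla2g15 was also lost without busulfan replicate 1 or 2 (0.141 and 0.119), and that of Pla2g4a after scaling to the same summed FPKM (0.111).

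Other routes to LPA moved in both directions. Of 10 genes listed for other routes to LPA or its precursors, 6 were tested, 2 rose, 2 fell and 2 did not pass. That is 66.7% called, beside 42.8% of all tested genes, with a median of -0.05. Lipi, which encodes a phospholipase that forms LPA from phosphatidic acid, fell from 56.2 ± 2.15 to 28.2 ± 1.29 FPKM (limma adjusted p = 4.84e-06). Gdpd1, an intracellular lysophospholipase D gene, rose 1.58-fold to 12.2 ± 1.33 FPKM, and Gpam, the mitochondrial glycerol-3-phosphate acyltransferase gene, rose 1.47-fold to 15.7 ± 1.88 FPKM (limma adjusted p of 0.00101 and 0.00204). Pla1a fell to 78.3% of its DMSO level (limma adjusted p = 0.0137), a call lost after scaling to the same summed FPKM (0.139).

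Genes of phosphatases and acyltransferases that act on LPA were examined as 1 list with their relatives. Not all of these relatives are known to remove LPA. Of 18 phosphatase and acyltransferase genes, 14 were tested, 6 fell, 2 rose and 6 did not pass (57.1% called), with a median of -0.05. Scaling to the same summed FPKM turned this split to 3 lower and 5 higher. The lipid phosphate phosphatase genes Ppap2a and Ppap2c (also named Plpp1 and Plpp2), whose products dephosphorylate LPA at the cell surface, both fell, the first from 21.4 ± 0.987 to 9.09 ± 0.937 FPKM and the second from 27.0 ± 0.648 to 16.5 ± 1.66 FPKM (limma adjusted p of 1.41e-05 and 0.000189). Their relative Ppapdc2 (Plpp6) fell from 69.7 ± 1.5 to 36.2 ± 3.10 FPKM, and Lppr2 (Plppr2) rose from 1.75 ± 0.124 to 3.50 ± 0.552 FPKM (limma adjusted p of 1.58e-05 and 0.00147). Of 11 tested genes that reacylate or break down LPC and its kin, 4 fell, 3 rose and 4 did not pass (63.6% called, beside 42.8% of all tested genes), with a median of 0.01. The acyltransferase gene Mboat1 fell to 58.0% of its DMSO level and Lpcat4 rose 1.72-fold, while the lysophospholipase genes Lypla2 and Pnpla7 went to 73.7% and up 1.37-fold.

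Downstream of the receptors, genes of G proteins and their effectors fell in 8 of 17 tested cases, rose in 1 (Gnai1) and did not pass in 8, with a median of -0.13. That is 52.9% called, beside 42.8% of all tested genes (20.8% of all tested genes higher and 22.1% lower). After scaling to the same summed FPKM, 4 were lower and 3 higher. Gna12, which encodes a G protein that links LPA receptors to RhoA, fell from 32.0 ± 0.561 to 21.7 ± 1.89 FPKM. The exchange factor gene Arhgef12 fell to 73.2%, Rhoa itself to 77.9% and the kinase gene Rock2 to 62.5% of the DMSO level (limma adjusted p of 0.000222 to 0.00106 for these 4). Of 19 tested targets of YAP and TAZ, the coactivators that RhoA signalling can switch on, 4 fell, 3 rose and 12 did not pass (36.8% called), with a median of 0.02. Scaling to the same summed FPKM gave 4 lower and 7 higher. Igfbp3 fell from 20.5 ± 2.32 to 8.32 ± 2.02 FPKM, Dlc1 and Gadd45a to 55.9% and 64.5%, and Nuak2 rose 1.72-fold. In the same libraries 9 of 12 tested endothelial markers and 7 of 11 tested fibroblast markers fell and none rose, with medians of -0.62 and -0.66. The summed endothelial level went from 158 to 169 FPKM with DMSO to 87.6 to 100 FPKM with busulfan, and the fibroblast level from 392 to 487 FPKM to 225 to 332 FPKM. No marker of either list was at 0 in every library, and the part of these cells in the changes was not tested.

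The receptors for sphingosine 1-phosphate, relatives of the EDG-type LPA receptors, were divided. Of 8 tested genes of this pathway, 1 rose, 1 fell and 6 did not pass (25.0% called, beside 42.8% of all tested genes). Scaling to the same summed FPKM gave 5 higher and 1 lower. S1pr3 rose from 7.89 ± 0.690 to 13.7 ± 0.851 FPKM (limma adjusted p = 0.000177). S1pr1, the main endothelial receptor gene of the family, fell from 4.13 ± 1.35 to 2.24 ± 0.251 FPKM (limma adjusted p = 0.0174). Its call was lost without busulfan replicate 2 (limma adjusted p = 0.0528), which left 1 gene called. Of the 12 tested endothelial markers 9 fell and 3 did not pass, and a link between them and S1pr1 was not tested.

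For the nucleotide-splitting members of the family, the enzymes and receptors of extracellular nucleotides were examined. Of 14 tested genes of ecto-nucleotide and adenosine metabolism, 6 rose, 2 fell and 6 did not pass, with a median of 0.13. That is 57.1% called, beside 42.8% of all tested genes (20.8% higher and 22.1% lower). Alpl, which encodes the tissue-nonspecific alkaline phosphatase that breaks down the pyrophosphate made by ENPP1, rose from 85.5 ± 9.70 to 161 ± 16.5 FPKM. Dpp4, whose product binds adenosine deaminase in humans, rose from 17.2 ± 1.03 to 36.8 ± 1.08 FPKM, and the lysosomal nucleoside transporter gene Slc29a3 rose 1.99-fold. The concentrative nucleoside transporter gene Slc28a3 fell from 14.5 ± 1.46 to 3.47 ± 0.206 FPKM (limma adjusted p of 1.77e-06 to 0.000253 for these 4).

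Of 12 tested purinergic receptor genes, 5 rose, 4 fell and 3 did not pass, with a median of -0.08. That is 75.0% called, beside 42.8% of all tested genes (20.8% higher and 22.1% lower). After scaling to the same summed FPKM, 5 were higher and 2 lower. P2rx2, an ATP-gated channel gene, rose from 24.3 ± 3.46 to 60.8 ± 2.16 FPKM and was the receptor gene with the highest busulfan level of this list. The adenosine receptor gene Adora1 rose 1.85-fold to 6.96 ± 0.930 FPKM, and P2ry2 and P2rx6 rose 2.29-fold and 1.73-fold (limma adjusted p of 1.80e-05 to 0.00442 for these 4). Among genes of pyrophosphate and mineralisation, 2 of 7 tested rose, 1 fell and 4 did not pass (42.9% called). Besides Alpl, the phosphate transporter gene Slc20a1 rose 1.35-fold (limma adjusted p = 0.00543). Phospho1 fell from 1.95 ± 0.797 to 0.751 ± 0.417 FPKM (0.0323), a call lost without DMSO replicate 2 or busulfan replicate 1 or 2 (adjusted p of 0.0526 to 0.10).

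The cGAMP pathway, on which ENPP1 acts outside cells, had 3 of 10 tested genes higher, 2 lower and 5 not past the threshold. That is 50.0% called, beside 42.8% of all tested genes, with a median of -0.02. Tmem173, the gene of the cGAMP receptor STING, fell from 12.9 ± 1.16 to 5.31 ± 0.270 FPKM. The channel subunit genes Lrrc8c and Lrrc8e, whose products can carry cGAMP, rose 2.21-fold and 2.02-fold, and Slc19a1, a folate carrier gene that can import cGAMP in human cells, fell to 69.4% (limma adjusted p of 1.18e-05 to 0.000541 for these 4). Macrophage and leukocyte markers, which include cells rich in STING, summed to 229 to 254 FPKM with DMSO and 202 to 275 FPKM with busulfan, with 1 of 12 tested higher and 2 lower.

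**Figure D4:**
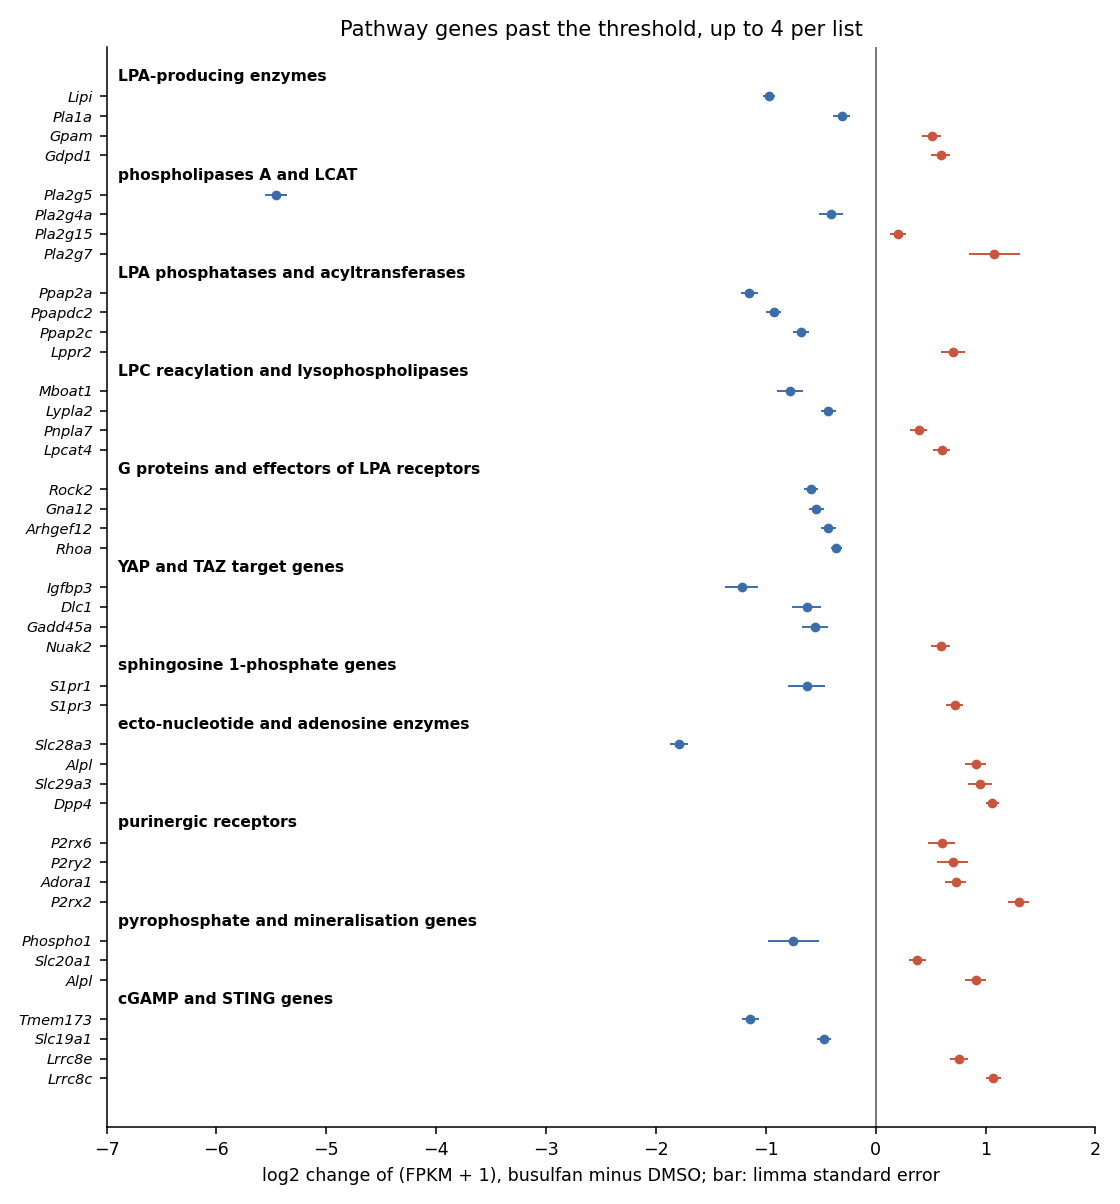
Log2 change of (FPKM + 1), busulfan minus DMSO, with the limma standard error, for up to 4 genes of each pathway list past the adjusted p threshold with the largest changes. Pla2g5 stands apart at -5.46, and the remaining genes lie between -1.79 and 1.30.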

How the data were processed

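RNA of the proximal epididymis was measured in 6 libraries, 3 per group. Per the labels' protocols, the libraries came from a TruSeq stranded mRNA kit after RNeasy extraction. The authors deposited 1 table of normalized FPKM, per the file headers, with 24346 genes and 1 column per library. The submitters' processing notes name TopHat2 2.1.1, Cufflinks 2.2.1 and the build mm10. How FPKM were normalized between libraries is not given in the sources used here.

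Groups were compared by limma 3.58.1 on log2(FPKM + 1), for genes whose mean reached 1 FPKM (R 4.3.3, mean-variance trend, 6 libraries) with Benjamini-Hochberg adjustment and a threshold of 0.05. This scale understates changes of low genes. Folds are ratios of mean FPKM. The fit was also run on simulated data in which far fewer genes changed than were called here. That run therefore cannot show how well the fit holds for these libraries. Depth was the value at which most low values of 1681 single-transcript genes became whole fragments (75.8% to 80.4% within 0.1 fragments, where chance gives 20%). It was fitted on those same values, so it is rough, no counts were recovered for most genes, and no count test was run. Coordinates came from GENCODE M21 (GRCm38).

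The genes and lists were chosen with earlier results of these data known. Named pathway genes were up to 4 per list past the threshold with the largest changes, beside the 10 genes, their family and their nearest genes by expression, of which some are not reported here. No 2 libraries had identical values.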

Additional observations from a re-analysis of the deposited data

How the results depend on the processing

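The log2 differences of the 7 tested genes of the set kept their direction in the 89 values obtained under alternatives. Lpar2 had no value with a mean of at least 5 FPKM or without DMSO replicate 2, where it did not pass the filter. Enpp2 lay between -4.71 (pseudocount 0.1) and -4.40 (same summed FPKM), Enpp5 between 0.82 and 1.03, Enpp1 between 0.63 and 0.96, Enpp4 between 0.40 and 0.58, Lpar6 between 0.35 and 0.56, Lpar1 between 0.12 and 0.32 and Lpar2 between -0.21 and -0.03. For the pathway genes named, 455 of 471 values under alternatives kept direction and side of the threshold and 16 lost the call. With the replicate block, 4627 of all tested genes passed instead of 5501. The deviations of same-numbered libraries had correlations of -0.18, -0.0246 and -0.175, and the highest of any pair was 0.229 (DMSO replicate 1 with busulfan replicate 3). With 3 libraries per group, such correlations cannot settle whether same-numbered libraries were paired. The calls of Pla2g15 and Phospho1 were also lost with that block (adjusted p of 0.0729 and 0.0801) and with no filter on low values (0.0745 and 0.0555). With only genes of a mean of at least 5 FPKM, the sphingosine 1-phosphate list had 1 call of 6 tested and the purinergic receptors 3 of 3, because fewer genes were tested. Scaling to the same summed FPKM gave 11 calls among YAP and TAZ targets and 6 in the sphingosine 1-phosphate list, along with the shift of all genes by 0.14. Leaving out single libraries gave 2 to 4 calls among the phospholipases, 1 to 3 in the sphingosine 1-phosphate list and 4447 to 5046 among all tested genes. Without the mean-variance trend, chosen after seeing the data, 5357 genes passed. Low levels rest on few fragments, which limits Lpar3, Lpar4 and Enpp6.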

Other observations

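Enpp1 had a pattern over the libraries that other genes shared. The nearest gene by centred log2 values, looked up after the values of Enpp1 were seen, was Asb11, at a distance of 0.132. Asb11, which encodes an ankyrin repeat protein with a SOCS box, stood at 63.5, 40.4 and 45.5 FPKM with DMSO and at 70.8, 86.7 and 100 FPKM with busulfan. As for Enpp1, DMSO replicate 1 was the highest of its group and busulfan replicate 1 the lowest of its group, and the groups did not overlap. Mbnl3 was also near, at a distance of 0.145. Of the 2668 genes called higher with busulfan, 602 (22.6%) had this arrangement, and of the 2833 called lower, 260 (9.18%) had it. The arrangement was defined after the values were seen, was not counted over all tested genes and was not tested.

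Mast cell and basophil markers, which in humans include cells that carry ENPP3 on their surface, were low apart from Kit, with mean levels of at most 1.13 FPKM with DMSO and 1.15 FPKM with busulfan. The listed genes summed to 10.4 to 11.6 FPKM with DMSO and 11.6 to 13.9 FPKM with busulfan, most of it from Kit (7.02 and 9.81 FPKM), and Mcpt8 was at 0 in every library. Of 3 tested, 1 rose (Kit) and 2 did not pass (33.3% called, beside 42.8% of all tested genes, 20.8% higher and 22.1% lower).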
